A study of Mus musculus with 8 samples.

Results

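The extracellular matrix genes measured here were 75 genes for collagens, laminins, nidogens, perlecan, fibronectin, fibulins, fibrillins, lecticans, tenascins and the Hapln link proteins. They were chosen by gene symbol from the names printed in the array files, whatever their values, and they made up 75 of the 27373 gene names and 140 of the 41174 probes on the array. RNA came from the whole hippocampus of 4 BTBR and 4 B6 mice, and the study asked how gene expression in BTBR, an inbred strain used as a mouse model of autism, differs from that of the B6 control strain. BTBR mice carried the genotype BTBR T+ Itpr3tf/J and B6 mice were C57BL/6J wild type. All were male, 5 months old according to the labels, untreated and hybridized 1 mouse per array to single-color Agilent slides. The labels name C57BL/6J as the strain background of the BTBR samples too, while their titles, source names and genotype place them in the BTBR strain. Both are inbred strains bought from the Jackson Laboratory and bred in house, and they differ across the genome and not at 1 gene.

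Extracellular matrix in the brain is of several kinds. Fibrillar collagens are made mostly by fibroblasts of the meninges and around large vessels. Laminins, type IV collagen, nidogens and perlecan form the basement membrane under endothelial and choroid plexus cells. Neurons and glia are instead surrounded by a matrix of hyaluronan, lecticans, tenascin-R and link proteins, which condenses into perineuronal nets around parvalbumin interneurons, among other neurons. Whole hippocampus holds all these cell types, and in such bulk RNA fewer cells of a type and less RNA per cell cannot be told apart.

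The arrays had 56.8% to 71.9% of probes well above background in B6 and 61.9% to 71.5% in BTBR. All 8 neuronal marker genes were well above background on every array. Their summed log2 intensity was 19.05 to 19.11 in B6 and 18.83 to 19.26 in BTBR. The list includes genes of neurons in general, such as Snap25 and Syt1, so it does not test the hippocampal label against other brain regions. Replicates 1 and 2 of each strain shared slide 1, and replicates 3 and 4 shared slide 2. In BTBR replicate 1 the thalamus list reached a summed log2 intensity of 17.15, against 14.29 to 15.07 on the other arrays. All 17 probes of this list differed positively between strains, with a median of 0.64, and 0 passed limma at an adjusted p under 0.05 (7.61% of all probes did). The astrocyte list did not overlap between strains, at 18.86 to 18.96 in B6 and 18.53 to 18.77 in BTBR. Of its 20 probes 17 differed negatively and 3 positively. The 4 that passed, all lower in BTBR (20%, against 4.3% of all probes called lower), belonged to 2 of its 8 genes, Gfap and Aldoc. The part of these marker differences in the matrix results was not tested.

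Most of the matrix genes did not pass the test between strains. Of 75 genes, 69 had at least 1 probe above background and were tested with 93 probes, and 7 genes passed limma at a Benjamini-Hochberg adjusted p under 0.05. Fbln5, Lama2, Col6a5 and Hapln3 were up-regulated in BTBR, and Col2a1, Col12a1 and Col27a1 were down-regulated. These calls covered 8 of 93 matrix probes (8.6%), against 7.61% of all 27982 tested probes, so the matrix genes were called about as often as the array as a whole. The 4 up-regulated probes compare with 3.31% of all probes called higher, and the 4 down-regulated probes with 4.3% called lower. The BTBR and B6 arrays did not overlap at 13 matrix probes (14%), against 14.2% of all tested probes. At an unadjusted limma p under 0.05 there were 20 matrix probes, against 18.5% of all probes. Differences ranged from -1.17 to 1.37 on the log2 scale, with a median of 0.05 over the matrix probes and 0.01 over all tested probes. The median size of a difference, whatever its sign, was 0.18 for matrix probes and 0.10 for all tested probes. The spread between mice of 1 strain was larger too, with a median pooled SD of 0.22 for matrix probes and 0.13 for all tested probes.

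**Figure D1:**
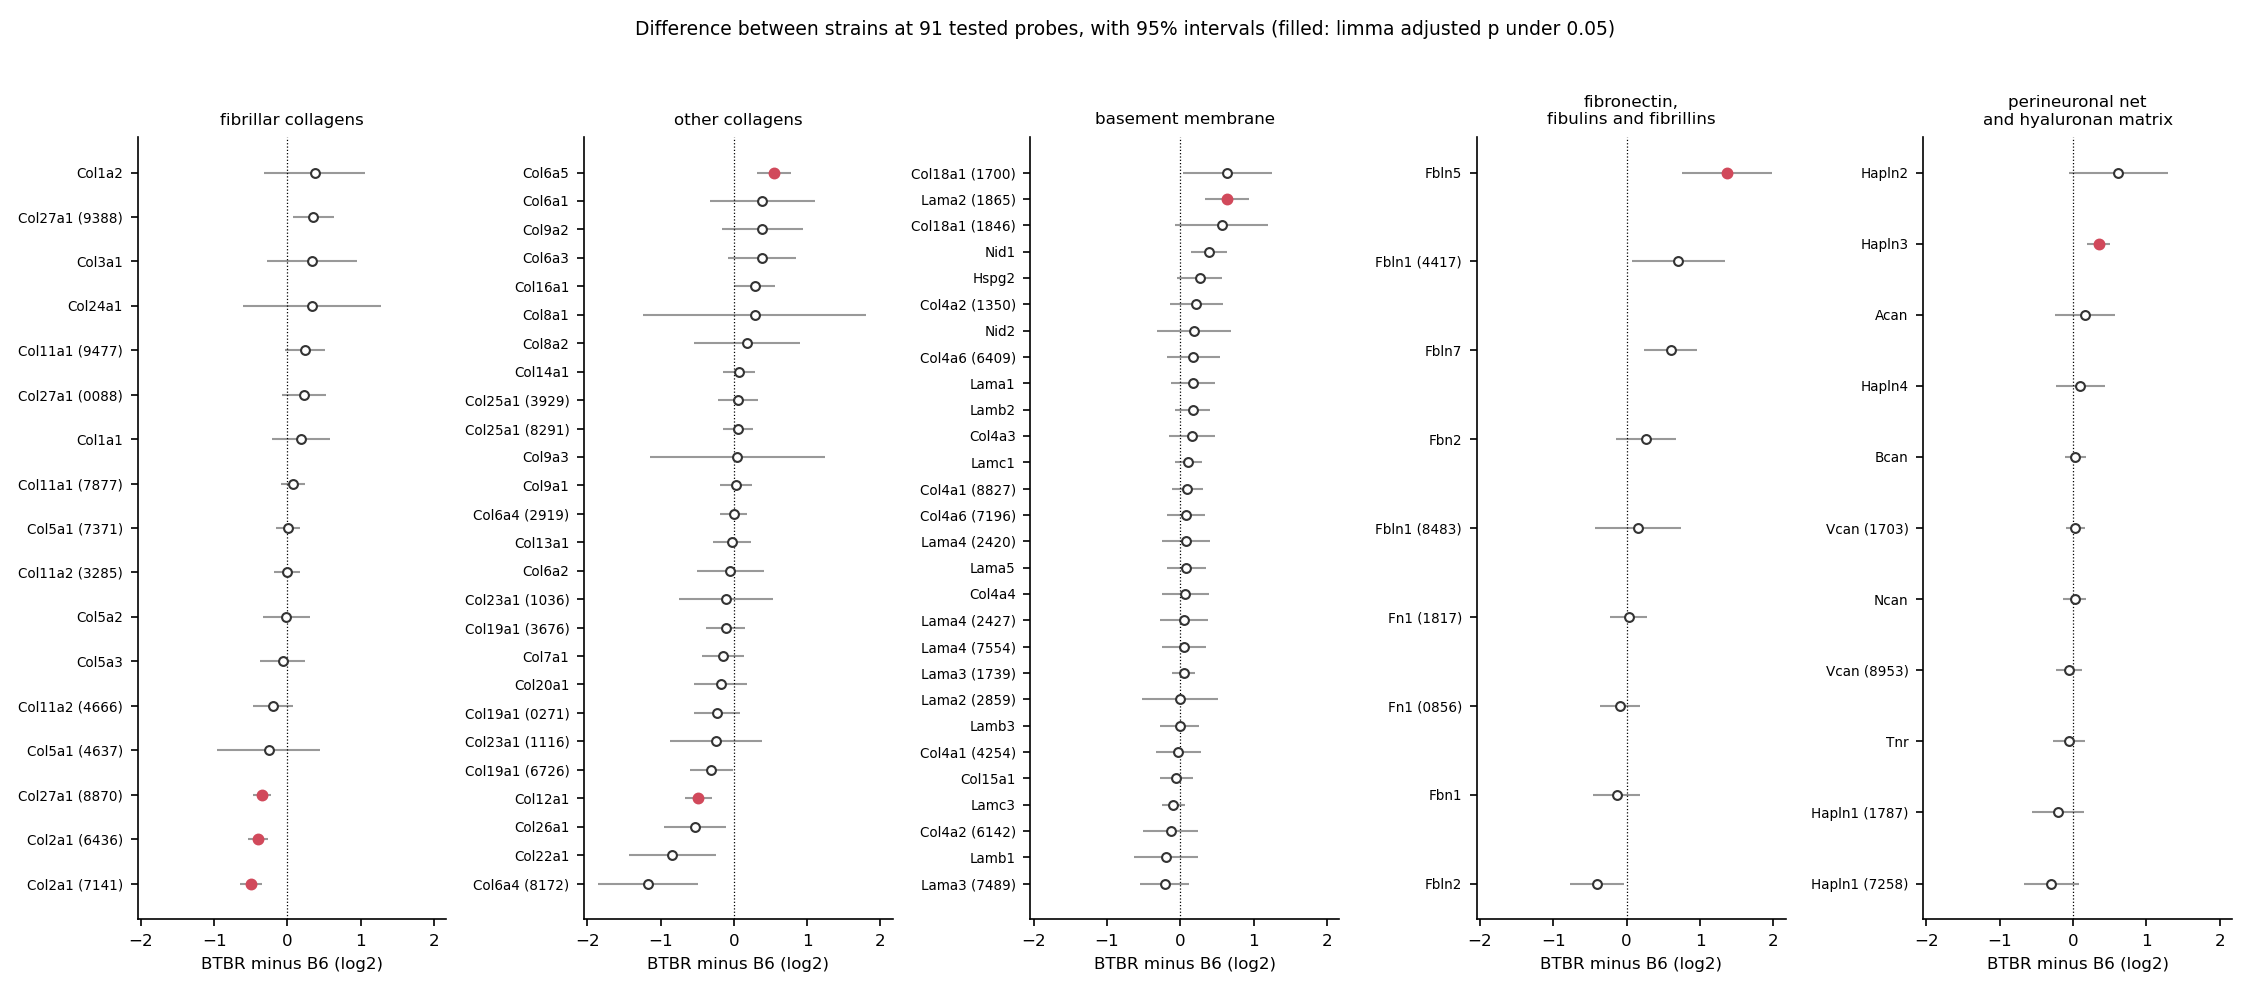
BTBR minus B6 difference on the log2 scale for 91 of the 93 tested matrix probes, by class, with limma 95% intervals; the end of a probe's ID is given where a gene had more than 1 tested probe. The 8 filled points passed at an adjusted p under 0.05, and most intervals include 0.

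The other 47 probes were not tested because they were well above background on fewer than 75% of the arrays of both strains, and 30 of them were above it on no array. Col4a5, Col10a1, Col17a1, Col28a1, Col6a6 and the tenascin-C gene Tnc had no tested probe. The Tnc probes were well above background on at most 2 of 4 arrays of each strain, so no strain difference in Tnc was measurable here. No matrix probe was saturated or carried an outlier flag.

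Among the fibrillar collagens, which assemble into the banded fibers of connective tissue, 3 of 17 tested probes passed, all lower in BTBR (17.6%, against 4.3% of all probes called lower and 7.61% called in either direction), and 2 of the 3 overlap in sequence. Their genes were Col2a1 and Col27a1, both best known from cartilage, and the median difference of the 17 probes was 0.01. The main fibroblast collagens did not pass. Both Col2a1 probes read the same 40 bases, printed in capitals, so they are 2 readings of nearly the same stretch and not independent evidence. They lie on the minus strand at chr15:97806485-97806544 and chr15:97806505-97806564 in mm9 and are written 5′ to 3′.
Col2a1 A_51_P317141: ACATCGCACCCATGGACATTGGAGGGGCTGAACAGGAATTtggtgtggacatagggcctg
Col2a1 A_52_P216436: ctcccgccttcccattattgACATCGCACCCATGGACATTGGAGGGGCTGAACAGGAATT
The brighter probe, A_52_P216436, measured 9.02, 8.93, 8.93 and 9.08 in the B6 arrays and 8.57, 8.61, 8.58 and 8.58 in the BTBR arrays (normalized log2 intensity, replicates 1 to 4). All BTBR arrays were below all B6 arrays, and the difference was -0.41 ± 0.06 (SE, n = 4 per strain; limma adjusted p = 0.00273). The other probe measured 8.36, 8.32, 8.35 and 8.20 in B6 and 7.93, 7.75, 7.79 and 7.76 in BTBR, again with no overlap. Its difference was -0.50 ± 0.07 (limma adjusted p = 0.00186), but only 1 of 4 BTBR arrays was well above background there. Near background the size depended on the signal used, and the scanner software's processed signal gave -0.69 and -2.14 for the 2 probes, while the deposited matrix gave -0.30 and -0.27.

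Col27a1 had 3 tested probes that disagreed. Probe A_52_P628870, at chr4:62953608-62953667 on the plus strand (mm9), measured 8.02, 8.08, 8.10 and 8.09 in B6 and 7.70, 7.69, 7.75 and 7.76 in BTBR. On 3 of 4 B6 arrays and no BTBR array its signal was well above background, so the probe was at least 1.235-fold higher in B6 (fitted difference -0.35, limma adjusted p = 0.00384). The bound sets the B6 mean against the lowest signal well above background on each BTBR array, or the probe's own signal where that was higher. The other 2 Col27a1 probes went the other way, with differences of 0.35 (adjusted p = 0.151) and 0.23 (adjusted p = 0.42) by limma, neither called. Probe A_52_P129388, which spans a splice junction between chr4:62990939 and 62992372, is shown because its BTBR arrays, at 8.86, 8.52, 8.38 and 8.24, lay above all B6 arrays, at 8.16, 8.09, 8.21 and 8.14.
Col27a1 A_52_P129388: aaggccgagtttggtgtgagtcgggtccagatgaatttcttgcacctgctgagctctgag
A gene-level direction for Col27a1 therefore rests on which probe is read.

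Col1a1 and Col1a2, which encode the chains of type I collagen, and Col3a1, the type III chain, varied more between mice than between strains. Col1a2 measured 11.35, 11.75, 12.44 and 11.14 in B6 and 12.30, 11.41, 12.07 and 12.40 in BTBR. The strains overlapped widely, and the difference was 0.37 with a 95% interval of -0.32 to 1.06 (limma adjusted p = 0.596). Col3a1 ran from 8.31 to 9.52 in B6 and from 8.68 to 9.47 in BTBR (difference 0.34, adjusted p = 0.587 by limma). Col1a1 differed by 0.19 (limma adjusted p = 0.648). The summed fibroblast marker list was 15.07, 15.81, 16.36 and 15.24 in B6 and 16.37, 15.87, 15.61 and 16.43 in BTBR. B6 replicate 3, BTBR replicate 1 and BTBR replicate 4 were the highest 3 arrays for both Col1a2 and this list. The list holds 14 genes, all well above background on every array. Of its 19 probes 15 differed positively, with a median of 0.26, and 1 passed (5.26%, against 7.61% of all probes), a probe for the growth factor Igf2 at 1.24 (limma adjusted p = 0.0333). The other Igf2 probe differed by 1.29 and did not pass (limma adjusted p = 0.065). What the fibroblast share of each dissection contributed to the collagen levels was not tested.

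The fibronectin, fibulin and fibrillin class, proteins that link cells to fibers and organize elastic microfibrils, had 9 tested probes, of which 1 passed (11.1%, against 7.61% of all probes). The median difference was 0.15. Fbln5, fibulin-5, an elastic fiber protein that binds integrins, had the largest difference of all matrix probes. It was read by 1 tested probe, A_51_P186703 (AK090129), at chr12:102988189-102988248 on the minus strand of mm9. The probe measured 9.79, 10.03, 10.38 and 9.52 in B6 and 11.85, 11.48, 10.60 and 11.26 in BTBR. Every BTBR array was above every B6 array, although BTBR replicate 3, at 10.60, was close to B6 replicate 3. The mean rose from 9.93 ± 0.37 to 11.30 ± 0.52 (SD, n = 4), a difference of 1.37 ± 0.27 (SE) or 2.58-fold (limma adjusted p = 0.0142, exact permutation p = 0.0286, which is the smallest possible with 4 against 4). The difference was 1.76 within slide 1 and 0.98 within slide 2. The other 2 Fbln5 probes, A_52_P278336 (NM_011812) and A_52_P288050, were well above background on 0 of 8 arrays, with means of 7.68 and 7.49 in B6 and 7.71 and 7.58 in BTBR, so the call rests on 1 of 3 probes.

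The other fibulins stood on both sides of 0. Fbln7 measured 9.17, 9.40, 9.56 and 9.36 in B6 and 10.39, 9.87, 10.03 and 9.60 in BTBR, with no overlap. Its difference of 0.60 lay just outside the threshold (limma adjusted p = 0.0548), and it passed without BTBR replicate 4 (limma adjusted p = 0.0188). Fbln2 differed by -0.40 (limma adjusted p = 0.218). Fbln1 had 2 probes, whose differences of 0.70 and 0.15 were themselves unequal (change between probes 0.55 ± 0.08, SE, limma adjusted p = 0.00186 over all probe pairs). BTBR replicate 4 was the highest array on both Fbln1 probes, at 10.46 and 10.37. The Fbln1 probe with the larger difference passed only without BTBR replicate 2 (limma adjusted p = 0.0367). Fn1, fibronectin itself, differed by -0.09 and 0.03 on its 2 tested probes, and neither passed.

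**Figure D2:**
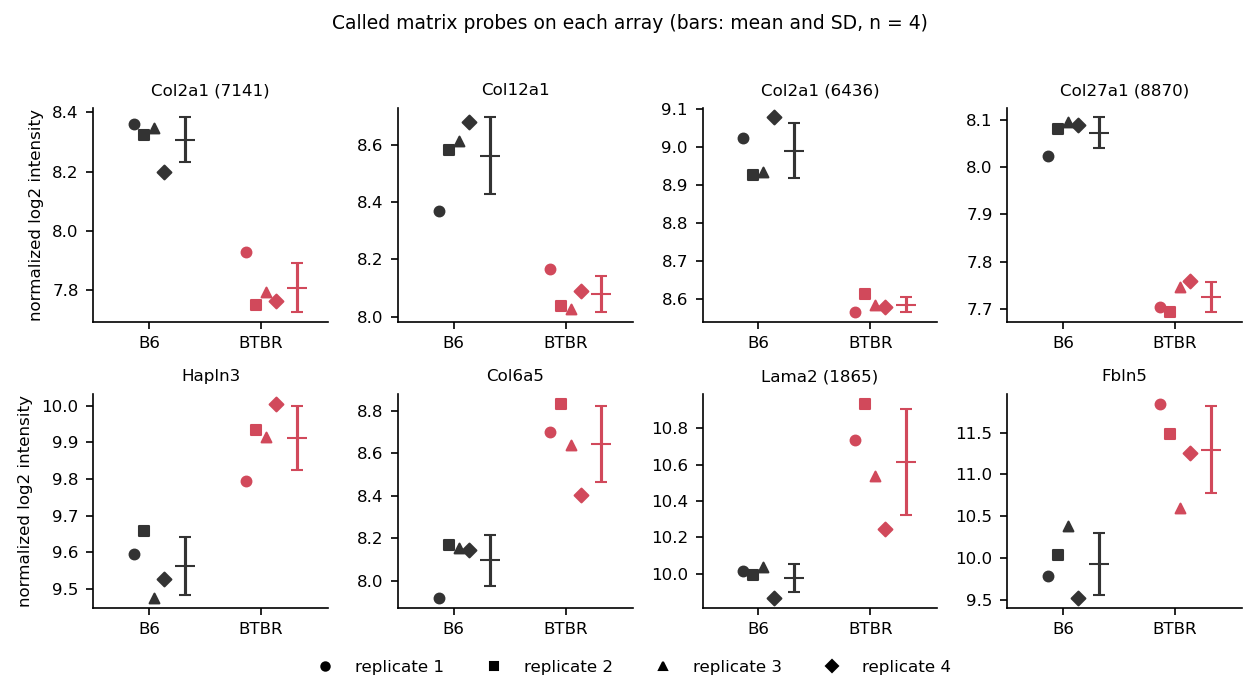
Normalized log2 intensity of the 8 called matrix probes on each array, with a marker for each replicate number and bars for the mean and SD of 4 arrays per strain; axes do not start at 0 and differ between panels. BTBR and B6 arrays do not overlap in any panel, and the fitted difference ranges from -0.50 for Col2a1 to 1.37 for Fbln5. The Col2a1 probe at -0.50 was well above background on 1 BTBR array and the Col27a1 probe on none, so their sizes depend on the signal used.

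Of 30 tested basement membrane probes 1 passed (3.33%, against 7.61% of all probes). Of the 30 differences 21 were positive, where 53.3% of all tested probes were, and the median was 0.08. The core components that vessels and choroid plexus share did not pass. Lamc1, the laminin gamma 1 chain found in most laminins, measured 12.34, 12.44, 12.53 and 12.34 in B6 and 12.53, 12.65, 12.35 and 12.56 in BTBR (difference 0.11, 95% interval -0.07 to 0.29). Lamb2, the laminin beta 2 chain, differed by 0.17 (-0.07 to 0.41), and Hspg2, which encodes perlecan, by 0.26 (-0.04 to 0.57). Col4a1 and Col4a2 encode the chains of the common type IV collagen network. The 2 Col4a1 probes differed by -0.03 and 0.10. The 2 Col4a2 probes differed by 0.22 and -0.13 (change between probes -0.35, limma adjusted p = 0.00973 over all probe pairs). None of these genes passed the test between strains, and the intervals show how large a difference the 8 arrays still allow. The endothelial marker list overlapped between strains, at 15.95 to 16.19 in B6 and 15.98 to 16.41 in BTBR. The summed pericyte and smooth muscle list overlapped too, at 15.61 to 16.14 in B6 and 15.93 to 16.10 in BTBR, and its 12 genes were all above background on at least 1 array, 11 of them on every array. Of its 20 probes 8 differed positively and 12 negatively, with a median of -0.01, and 3 passed, all higher in BTBR (15%, against 3.31% of all probes called higher). These were Abcc9, a potassium channel subunit, at 0.65 and 0.63 on 2 of 3 probes, and Rgs5, a pericyte regulator of G protein signaling, at 0.65 on 1 of 2 probes, while its other probe differed by -0.17. The part of pericytes in the basement membrane levels was not tested.

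Lama2, the laminin alpha 2 chain, known from the basement membranes of muscle and vessels, was the called basement membrane gene. It was called on 1 of 2 tested probes, and both are shown because they disagree. Probe A_51_P191865 (U12147) lies at chr10:26704229-26704288 and probe A_52_P652859 spans a splice junction between chr10:26710714 and 26712724, both on the minus strand of mm9. They are written 5′ to 3′.
Lama2 A_51_P191865: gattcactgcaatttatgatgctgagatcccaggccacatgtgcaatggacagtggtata
Lama2 A_52_P652859: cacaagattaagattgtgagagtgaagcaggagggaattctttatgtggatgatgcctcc
A_51_P191865 measured 10.02, 9.99, 10.03 and 9.86 in B6 and 10.74, 10.94, 10.54 and 10.25 in BTBR. B6 arrays lay close together and all BTBR arrays were above them (difference 0.64 ± 0.14, SE, limma adjusted p = 0.0206). The call was lost without any single B6 array and without BTBR replicate 1, with limma adjusted p values up to 0.0677, while the difference stayed between 0.53 and 0.76 in every fit that left out 1 array. The dimmer probe A_52_P652859 measured 8.04, 8.36, 8.38 and 8.32 in B6 and 8.58, 8.62, 7.52 and 8.36 in BTBR, and did not differ measurably (-0.00, 95% interval -0.52 to 0.51). The 2 probes' changes differed by -0.64 ± 0.21 (SE), which did not pass over all probe pairs (limma adjusted p = 0.113).

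Nid1, nidogen-1, which bridges laminin and type IV collagen, was just outside the threshold. It measured 9.75, 9.80, 10.20 and 9.83 in B6 and 10.23, 10.25, 10.25 and 10.43 in BTBR. BTBR arrays were all above B6 arrays, by 0.39 ± 0.11 on average (SE, limma adjusted p = 0.0598). Nid1 passed without B6 replicate 3 (limma adjusted p = 0.00805) and with the slide as a block (adjusted p = 0.0386).

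The other collagens, which include network, beaded-filament, fibril-associated and transmembrane types, had 26 tested probes, of which 2 passed in opposite directions (7.69%, against 7.61% of all probes). Their median difference was -0.01. Col12a1, a collagen that decorates fibrils, measured 8.37, 8.58, 8.62 and 8.68 in B6 and 8.17, 8.04, 8.03 and 8.09 in BTBR at chr9:79447270-79447329 (mm9, minus strand). The strains did not overlap, and the difference was -0.48 ± 0.08 (SE, limma adjusted p = 0.00548). The processed signal gave -1.33 and the deposited matrix -0.31.

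Col6a5 and Col6a4 encode further alpha chains of type VI collagen, which forms beaded filaments around cells, and the genes are neighbors on chromosome 9. Col6a5 was up-regulated. Its probe lies on the minus strand and spans a splice junction between chr9:105765145 and 105766504 (mm9).
Col6a5 A_52_P387884: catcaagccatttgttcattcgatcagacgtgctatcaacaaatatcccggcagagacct
It measured 7.92, 8.17, 8.15 and 8.14 in B6 and 8.70, 8.83, 8.64 and 8.40 in BTBR. BTBR arrays were all above B6 arrays, and the difference was 0.55 ± 0.10 (SE, limma adjusted p = 0.0109), 1.5 with the processed signal and 0.36 in the deposited matrix. Col6a4 had the most negative difference of all matrix probes at A_51_P408172, which measured 10.69, 10.43, 10.16 and 9.07 in B6 and 8.88, 9.07, 8.80 and 8.92 in BTBR. The strains did not overlap, but B6 replicate 4 was close to the BTBR arrays, and the difference of -1.17 ± 0.30 (SE) just missed the threshold (limma adjusted p = 0.0502). Without B6 replicate 4 it passed (limma adjusted p = 0.000374). The other Col6a4 probe differed by -0.00, and the change between the 2 probes was 1.17 ± 0.31 (SE, limma adjusted p = 0.0439 over all probe pairs). The main type VI chains Col6a1, Col6a2 and Col6a3 differed by 0.39, -0.05 and 0.38, and none passed.

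**Figure D3:**
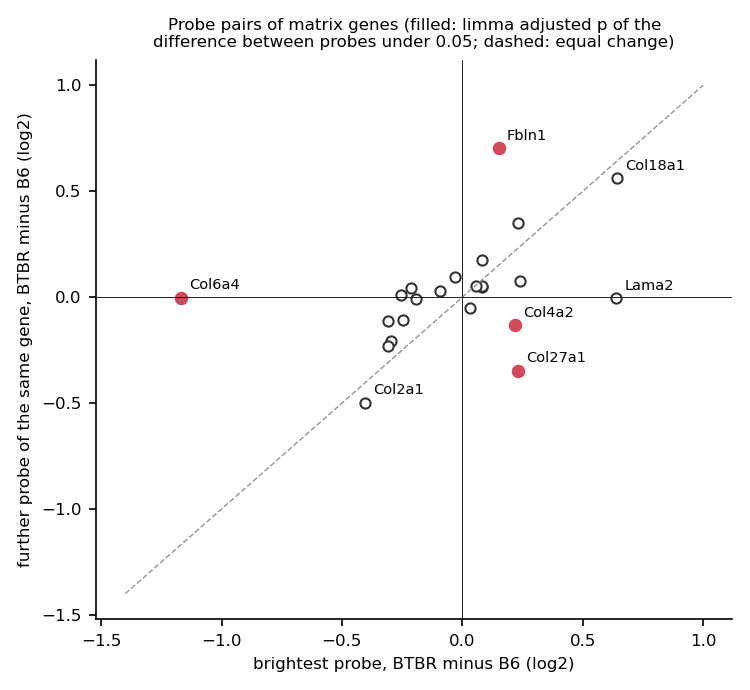
BTBR minus B6 difference (log2) of the brightest probe of a matrix gene on the x axis and of a further probe of the same gene on the y axis, for 23 of the 24 pairs; the dashed line marks equal change. The 4 filled pairs, Fbln1, Col4a2, Col27a1 and Col6a4, changed unequally at an adjusted p under 0.05, and both Col2a1 probes are below 0.

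Over the 21 matrix genes with at least 2 tested probes, 4 of 24 probe pairs changed unequally (Fbln1, Col4a2, Col27a1 and Col6a4), against 8.98% of 9583 pairs over all genes. The Col27a1 pair includes a probe with only a bound in BTBR, so the size of its inequality is not given. Col2a1 was the only one of the 7 called genes with 2 called probes. Fbln5, Col6a5, Hapln3 and Col12a1 had 1 tested probe each. Col6a5 and Hapln3 had no other probe on the array, and 2 further Col12a1 probes were not tested, being well above background on 0 and 2 of 4 BTBR arrays and on 0 of 4 B6 arrays.

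The widest spread within strains was at Col8a1 and Col9a3, collagens that followed the choroid plexus marker list from array to array. Col8a1, a short-chain network collagen, measured 11.97, 12.79, 12.82 and 10.46 in B6 and 13.41, 13.22, 11.18 and 11.35 in BTBR. Its pooled within-strain SD of 1.15 was at the 99.8th percentile of all tested probes, and Col9a3, a fibril-associated collagen, followed with an SD of 0.90. Col9a3 measured 11.10, 11.54, 11.59 and 10.41 in B6 and 12.33, 11.97, 9.87 and 10.65 in BTBR. For Col8a1, Col8a2 and Col9a3 the 5 highest arrays were the same and in the same order, from BTBR replicate 1 and BTBR replicate 2 to B6 replicates 3, 2 and 1. The summed choroid plexus list, which holds no matrix gene of this set, put the arrays in that order too, at 16.22, 16.95, 17.00 and 15.63 in B6 and 17.73, 17.62, 16.09 and 15.86 in BTBR. Of its 11 genes 10 were on the array and all 10 were above background on at least 1 array, 9 of them on every array. Col18a1, which encodes the basement membrane collagen that yields endostatin, was also highest in BTBR replicates 1 and 2, at 11.75 and 11.53, and it ranged from 10.17 to 10.95 on the other arrays. Col24a1, next after Col9a3 in spread with an SD of 0.71, ranked the arrays otherwise, at 9.27 in B6 replicate 2 and 9.05 in BTBR replicate 2. The strain differences were 0.28 for Col8a1, 0.18 for Col8a2, 0.05 for Col9a3 and 0.64 for Col18a1, and none passed. Their signs were not stable when 1 array was left out, with ranges of -0.23 to 0.65 for Col8a1, -0.07 to 0.37 for Col8a2 and -0.33 to 0.49 for Col9a3. The lowest value came without B6 replicate 4 for Col8a1 and without BTBR replicate 1 for Col8a2 and Col9a3. Col18a1 kept its sign, at 0.45 to 0.81, but differed by 1.10 within slide 1 (limma adjusted p = 0.0432) and by 0.18 within slide 2 (adjusted p = 0.883). These values are of its brighter probe. The other Col18a1 probe differed by 0.56 and did not pass, nor did it within slide 1, at 1.03 (limma adjusted p = 0.0744). The part of the choroid plexus signal in these levels was not tested. These genes were singled out after their values were seen.

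**Figure D4:**
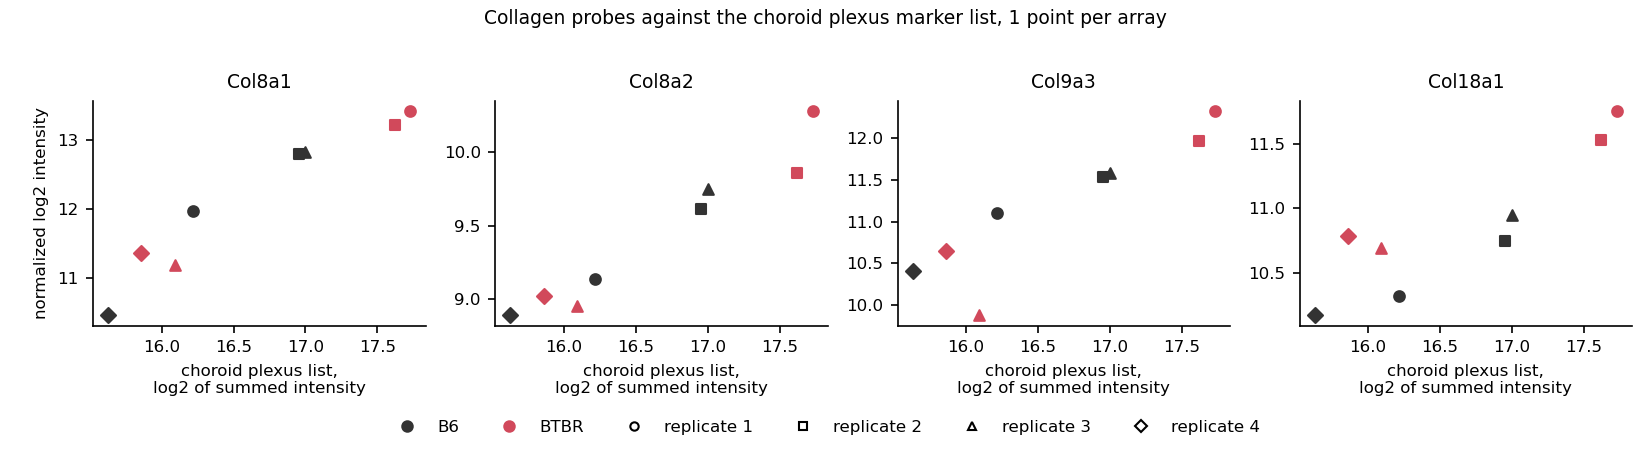
Normalized log2 intensity of Col8a1, Col8a2, Col9a3 and Col18a1 (y axis, axes not starting at 0) against the log2 summed intensity of the choroid plexus marker list (x axis), 1 point per array. BTBR replicates 1 and 2 are at the upper right in each panel and B6 replicate 4 has the lowest list sum, 15.63.

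The perineuronal net and hyaluronan matrix class had 11 tested probes, of which 1 passed (9.09%, against 7.61% of all probes), with a median difference of 0.03. The lecticans, chondroitin sulfate proteoglycans that bind hyaluronan, did not pass. Bcan (brevican) measured 16.04, 15.89, 15.92 and 15.93 in B6 and 16.01, 15.93, 15.92 and 16.04 in BTBR. The strains overlapped fully, and the interval of the difference, -0.11 to 0.17, leaves room only for a small change at this probe. Ncan (neurocan) was as close, with a difference of 0.02 and an interval of -0.14 to 0.18. The Vcan (versican) probes differed by -0.05 and 0.03. Acan (aggrecan), the lectican most closely tied to the nets, measured 9.68, 9.30, 9.42 and 9.47 in B6 and 9.22, 9.48, 10.16 and 9.66 in BTBR. Its interval of -0.25 to 0.58 was wider than those of Bcan and Ncan. Tnr, tenascin-R, which crosslinks the lecticans, differed by -0.06 (-0.27 to 0.16).

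The link proteins lock lecticans onto hyaluronan. Hapln3 was up-regulated. It measured 9.60, 9.66, 9.48 and 9.53 in B6 and 9.80, 9.93, 9.91 and 10.01 in BTBR at chr7:86262042-86262101 (mm9, minus strand). The strains did not overlap, and the difference was 0.35 ± 0.07 (SE, limma adjusted p = 0.0158). The call of Hapln3 A_51_P244213 was lost without B6 replicate 3 (adjusted p = 0.0591 by limma) and without B6 replicate 4 (adjusted p = 0.0545 by limma). Its difference stayed between 0.32 and 0.39 in every fit that left out 1 array. Hapln1, the main link protein of the nets, differed by -0.21 and -0.29 on its 2 probes, and Hapln4, a link protein of perisynaptic nets, by 0.10. None of these 3 probes passed. The brighter probe, Hapln1 A_52_P97258, measured 10.24, 10.14, 10.11 and 10.34 in B6 and 9.54, 9.68, 10.10 and 10.34 in BTBR. BTBR replicates 1 and 2, both on slide 1, were below all other arrays, and within that slide the difference was -0.59 (limma adjusted p = 0.0328). Within slide 2 it was -0.00 (limma adjusted p = 0.997). The other Hapln1 probe differed by -0.36 within slide 1 and did not pass there (limma adjusted p = 0.0877).

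Hapln2, a link protein of the nodes of Ranvier made by oligodendrocytes, had the widest spread within strains of this class. It measured 10.77, 10.86, 10.73 and 10.59 in B6 and 11.79, 12.07, 11.05 and 10.51 in BTBR. BTBR replicates 1 and 2 were above all other arrays and BTBR replicate 4 was below all B6 arrays. The difference was 0.62 overall (limma adjusted p = 0.323), 1.11 for Hapln2 A_52_P523516 within slide 1 (adjusted p = 0.0138) and 0.12 within slide 2, and without BTBR replicate 4 it was 0.90 (adjusted p = 0.0477). The test of the difference between slides did not pass after adjustment for any probe of the array. The oligodendrocyte marker list was also highest in BTBR replicates 1 and 2, at 19.20 and 19.41, and lowest in BTBR replicate 4, at 18.53, against 18.80 to 18.95 in B6. The parvalbumin interneuron list was 16.89 to 17.15 in B6 and 16.83 to 17.78 in BTBR, which overlap. The part of either list in these levels was not tested.

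**Figure D5:**
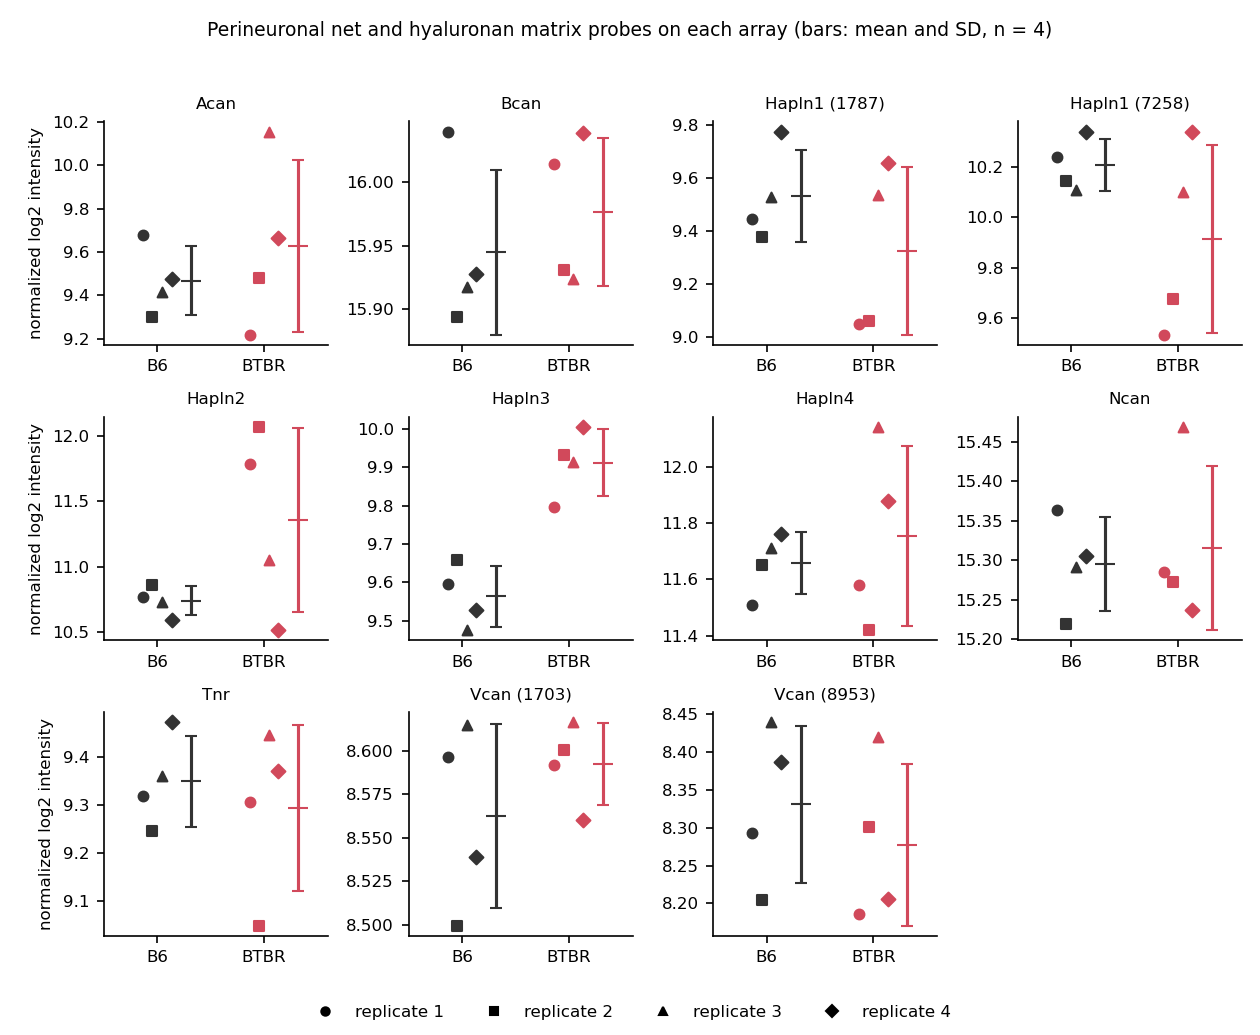
Normalized log2 intensity of the 11 tested perineuronal net and hyaluronan matrix probes on each array, with a marker for each replicate number and bars for the mean and SD of 4 arrays per strain; axes do not start at 0 and differ between panels. Bcan and Ncan overlap between strains, Hapln3 does not, and Hapln2 spans 10.51 to 12.07 within BTBR.

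The number of matrix probes that passed differed between slides. Each slide held different mice, so slide and mouse cannot be told apart. Within slide 1, 15 of 93 matrix probes passed (8.66% of all probes did), and within slide 2, 3 passed (3.7% of all probes). Of the 7 called genes, Fbln5, Lama2, Col6a5 and Col27a1 passed within slide 1 and not within slide 2, Col12a1 and Hapln3 passed within slide 2 and not within slide 1, and Col2a1 passed within both, on both probes in slide 1 and on 1 probe in slide 2. Col27a1 passed in opposite directions on slide 1, lower for A_52_P628870 (limma adjusted p = 0.0355) and higher, at 0.57, for A_52_P129388 (adjusted p = 0.0382). The size for A_52_P628870 is not given, because that probe was well above background on no BTBR array. The interaction of strain and slide passed for 0 of 27982 probes by limma after adjustment (0%). At an unadjusted p under 0.05 the interaction was found at 16 of 93 matrix probes, against 9.93% of all probes. The direction of the 8 called probes was the same on both slides.

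Genes that make, modify, cut or bind the matrix were counted in 5 lists, to be read against the 7.61% of all probes called. Of 23 tested genes for collagen processing and crosslinking, 4 were up-regulated and 3 down-regulated, at 23.3% of their probes. Serpinh1, the collagen chaperone HSP47, measured 9.83, 9.96, 10.23 and 9.89 in B6 and 8.87, 8.82, 8.74 and 8.78 in BTBR. Its difference of -1.18 ± 0.09 (SE, limma adjusted p = 6e-05) was seen with no overlap between strains. Loxl2, a lysyl oxidase that crosslinks collagen, was on no B6 array well above background at 1 probe and on all 4 BTBR arrays, at least 2.211-fold higher in BTBR (limma adjusted p = 0.000109), while its other probe differed by 0.18 and did not pass. P4hb, the disulfide isomerase subunit of prolyl 4-hydroxylase, rose by 0.38 (limma adjusted p = 0.0135).

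Of 22 tested genes for hyaluronan and chondroitin sulfate, 1 was up-regulated and 2 were down-regulated (13.8% of probes). Hyal1, a lysosomal hyaluronidase, measured 9.69, 9.79, 9.96 and 9.75 in B6 and 10.80, 10.59, 10.32 and 10.43 in BTBR on probe A_51_P479408. It rose by 0.74 and 0.73 on 2 probes (limma adjusted p = 0.00322 and 0.00572). Hyal3 was above background on 3 of 4 B6 arrays and on no BTBR array at 1 probe, at least 1.233-fold higher in B6, and its other probe differed by 0.25, not called. Chst14, a dermatan sulfate sulfotransferase, fell by 0.37 on the log2 scale (limma adjusted p = 0.0128).

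Of 24 tested matrix proteases and inhibitors, 2 were up-regulated (8.82% of probes). Mmp14, a membrane-bound collagenase, rose by 1.01 at 1 probe (limma adjusted p = 0.00077) and differed by 0.00 at the other, and Adam17, a sheddase, rose by 0.46 and 0.38. Of 26 tested matrix receptors 3 passed (8% of probes). Ddr2, a fibrillar collagen receptor kinase, fell by 0.87 on the log2 scale and Sdc2, syndecan-2, fell by 0.72 on the log2 scale, each on 1 of 2 probes. Sdc4, syndecan-4, passed in both directions, at -0.64 and 0.59 on its 2 probes.

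Of 35 tested leucine-rich proteoglycans and other matrix glycoproteins, 1 was up-regulated and 2 were down-regulated (8.16% of probes). Sparc, a collagen-binding glycoprotein, measured 11.04, 11.74, 11.73 and 11.95 in B6 and 14.22, 14.35, 13.48 and 13.57 in BTBR at 1 probe. That probe rose by 2.29 ± 0.25 (SE, limma adjusted p = 0.000512), while the other Sparc probe differed by 0.31 and the strains overlapped there. Mfap2, a microfibril protein, fell by 0.90 on the log2 scale at 1 probe and differed by -0.29 at the other, not called. Thbs4, thrombospondin-4, differed by -0.74 and -0.96 on its 2 probes, both called (limma adjusted p = 0.013 and 0.0318).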

How the data were processed

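Hippocampal RNA of 4 BTBR and 4 B6 mice was measured on 8 single-color arrays, grouped by the labels. The intensity values were deposited as read by Agilent Feature Extraction 10.7.3.1 (file headers; the submitters' processing notes name 9.1), unscaled between arrays. A matrix of log2 values, which the authors had background subtracted and quantile normalized with Agi4x44PreProcess defaults, served as an alternative. It ranked probes as the scanner values did, its column medians were 8.82 to 8.83, and its offset is not given in the sources used here.

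Local background was subtracted from mean intensity, with a floor of 0.5 and an offset of 50, and log2 values were quantile normalized. Replicate spots were summarized by their median. Control probes and 154 outlier-flagged probes were dropped, and the 27982 probes well above background on at least 75% of the arrays of 1 strain were tested. Limma 3.58.1 in R 4.3.3 fitted strain alone, with Benjamini-Hochberg adjustment over all tested probes (threshold 0.05). Probe pairs were compared as differences from the brightest probe of a gene. Scripts were tested on simulated data. The study's rank product, which permutes probes, was not used here. Summed marker intensities are log2 of the sum over each list's probes. Coordinates are the files' mm9.

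Other settings tried were the scanner software's processed signal scaled to its 75th percentile, normexp, median centring, the deposited matrix, other filters and flags, trend and robust moderation, replicate or slide blocks, the median over a gene's probes and each array left out. Named were called genes, all perineuronal net genes, genes fixed by role, and from each pathway list at most the 3 called genes with the smallest adjusted p. Fbln1, Fbln2, Fbln7, Col6a1 to Col6a4, Col8a1, Col8a2, Col9a3, Col18a1 and Col24a1 were named after their values were seen. One member is counted but not reported by name. Members and lists were chosen with earlier results of these data known.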

Additional observations from a re-analysis of the deposited data

Results flagged for a closer look

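In 68 groups of 4 arrays, 3 had an array set apart from the others by more of the group's whole range than Dixon's 95% critical value; chance alone sets about 1 in 20 such groups apart. B6 replicate 1 was lowest on the dimmer Lama2 probe, at 8.04 against 8.32 for the nearest array, a gap of 0.836 of the range. BTBR replicate 4 was highest for Nid1, at 10.43 against 10.25, a gap of 0.898 of the range. B6 replicate 1 was lowest for Col6a5, at 7.92 against 8.14, a gap of 0.9 of the range.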

How the results depend on the processing

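The 7 genes stayed called under the processed signal, normexp, the deposited matrix, no filter on dim probes, outlier flags kept, and trend and robust moderation. With probes well above background on all arrays, 4 genes on 4 probes were called, since the called probes of Col12a1, Col27a1 and Col6a5 were no longer tested. Within slides, chosen after seeing the data, 15 and 3 probes were called. Leaving out 1 array gave 6 to 9 genes and 7 to 10 probes. Class medians moved beyond their spread for basement membrane within slide 1 (0.17), fibrillar collagens with probes above background on all arrays (0.088), and perineuronal net genes under median centring (-0.036); leaving out 1 array gave -0.035 to 0.37 for fibulins and fibrillins and -0.030 to 0.044 for perineuronal net genes. Median centring gave 8 genes (with Col6a4), the slide block 9 (with Col6a4 and Nid1), and the median over a gene's probes 5 (without Col27a1 and Lama2). The replicate block gave 5 genes, without Fbln5 (adjusted p = 0.0571) and Hapln3 (adjusted p = 0.06) in limma. Same-numbered arrays correlated at -0.14 to 0.51, which does not settle whether the numbers pair the mice. No direction of a called probe reversed. Differences near background depend on the offset, 4 arrays per strain limit precision, and the BTBR sequence under the probes was not analysed here.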
